A study of Homo sapiens with 9 samples.

Results

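RUNX1, RUNX2 and RUNX3 encode the DNA-binding subunits of the core-binding factors, and CBFB encodes their shared partner, which does not touch DNA but strengthens the binding of the RUNX subunit and protects it from degradation. RUNX1 is known for blood formation, RUNX2 for bone and cartilage, and RUNX3 for T lymphocytes, sensory neurons and the stomach epithelium. Each RUNX gene has a distal and a proximal promoter, whose transcripts differ in their first coding exon. The 4 genes, of 27111 in the deposited files, were taken by gene name, and the family was selected on levels and fold changes already measured in these 9 libraries. Their values are therefore given as a description without a test.

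The RNA-seq data came from PC3 cells, a human prostate cancer line from a bone metastasis, grown as multicellular tumor spheroids (MTSs). The cells had been infected with lentiviral particles of the control vector pSIN-Empty (Empty), of pSIN-NF-YAl (NF-YAl) or of pSIN-NF-YAs (NF-YAs) and selected with puromycin. NF-YAl and NF-YAs are the long and the short splice form of NF-YA, the regulatory subunit of the CCAAT-binding factor NF-Y, and all groups kept their own NF-YA gene. Each group was 1 stable line with 3 libraries, each from a pool of MTSs, named by letters, of which A and B occur in every group, C in NF-YAs and Empty, and D in NF-YAl alone. Since each construct was studied in 1 line, an effect of the construct and a property of that line cannot be told apart.

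The libraries held between 18076979 and 27163976 expected counts. NFYA was measured at 89.2, 96.7 and 89.4 CPM (counts scaled to a common library size) in Empty A, B and C, at 287, 383 and 353 CPM in NF-YAl A, B and D, and at 264, 263 and 254 CPM in NF-YAs A, B and C, so that every library matched its label as an overexpressing or control sample, without telling the forms apart. Among PC3 markers, the keratin KRT18 and vimentin (VIM) were present in every library, with group means of 248 to 349 CPM and 936 to 1370 CPM, and KLK3, the androgen-dependent prostate antigen, had 0 counts. Of the 7 blood cell markers, relevant because RUNX genes are known from leukocytes, HBB had 0 counts, CD3E had at most 2 and PTPRC at most 12 counts in any library, and LYZ had group means of 20.6 to 25.9 CPM. The summed level of the 8 fibroblast and endothelial markers lay between 8.25 and 9.56 TPM (level corrected for transcript length and scaled to a common sum) in Empty, 82.1 and 152 TPM in NF-YAl and 40.2 and 59.4 TPM in NF-YAs, most of it from the receptor KDR with group means of 30.5, 491 and 234 CPM, while DCN, LUM and CDH5 had at most 11 counts in a library. Other endothelial markers of the list fell, in NF-YAl VWF and in NF-YAs PECAM1, with VWF at 6.87, 0.725 and 6.24 CPM and PECAM1 at 6.27, 5.57 and 1.88 CPM in Empty, NF-YAl and NF-YAs. The part of these markers in the results was not tested. The NF-YAl libraries were scattered. On the third principal component, with 9.36% of the variance, NF-YAl D scored -47.49 against 30.86 and 2.06 in NF-YAl A and B. On the second, with 26.4%, NF-YAl A scored -59.02 against -35.94 and -31.93 in NF-YAl B and D. Results that rest on NF-YAl D are given with and without it.

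The regulatory windows of the members are shown here because NF-Y binds the letters CCAAT and RUNX proteins bind TGTGGT. The RefSeq promoter table of GRCh38.p14 held 5 windows of the members, each of 300 bases that run from 250 bases before a transcription start into the transcript. In the sequences below, written 5′ to 3′ on the strand of the gene, capitals mark CCAAT or TGTGGT on either strand, read as ATTGG and ACCACA where they lie on the other strand. Shown are the windows of RUNX3 and RUNX2 that carried such letters, since these members differed most between the lines.
RUNX3 distal, chr1:24964961-24965260, minus strand: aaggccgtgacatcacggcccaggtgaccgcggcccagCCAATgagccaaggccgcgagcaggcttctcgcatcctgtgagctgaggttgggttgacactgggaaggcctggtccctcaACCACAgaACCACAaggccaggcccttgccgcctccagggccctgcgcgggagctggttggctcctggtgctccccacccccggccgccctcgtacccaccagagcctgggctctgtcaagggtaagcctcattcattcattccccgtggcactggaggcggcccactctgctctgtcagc
RUNX3 proximal, chr1:24930227-24930526, minus strand: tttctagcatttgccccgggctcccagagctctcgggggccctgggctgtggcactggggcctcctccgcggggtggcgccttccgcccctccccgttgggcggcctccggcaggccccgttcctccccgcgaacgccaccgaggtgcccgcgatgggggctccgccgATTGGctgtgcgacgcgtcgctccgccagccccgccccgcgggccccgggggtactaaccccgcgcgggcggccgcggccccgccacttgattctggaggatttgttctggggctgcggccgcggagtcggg
RUNX2 distal, chr6:45328080-45328379, plus strand: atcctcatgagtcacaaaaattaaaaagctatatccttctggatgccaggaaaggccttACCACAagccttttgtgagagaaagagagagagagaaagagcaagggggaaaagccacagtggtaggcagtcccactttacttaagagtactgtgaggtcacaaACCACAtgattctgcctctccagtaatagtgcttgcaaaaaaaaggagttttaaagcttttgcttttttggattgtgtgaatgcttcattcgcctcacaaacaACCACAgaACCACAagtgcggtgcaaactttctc

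With the transcription start counted as 0, CCAAT lay at -212 to -208 in the distal RUNX3 window and, on the other strand, at -82 to -78 in the proximal one. The single RUNX1 window, chr21:34888650-34888949 on the minus strand at the proximal start, held 2 such matches, and both RUNX2 windows held 0. CCAAT on either strand was found in 34.6% of all 35116 windows of the table, and at least 2 matches in 10.8%. TGTGGT occurred 4 times in the distal RUNX2 window and 2 times in the distal RUNX3 window, whereas 13.1% of all windows held at least 1 match and 1.31% at least 2. The proximal windows of RUNX1, RUNX2 and RUNX3 held 0 matches to TGTGGT, and no match of one motif overlapped a match of the other.

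The distal windows of RUNX2 and RUNX3 also shared their longest common run, 18 bases with a pair of RUNX letters, shown here because no other window of the table held it.
Shared run: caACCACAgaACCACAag
It began at 14 from the start in RUNX2 and at -133 in RUNX3. The longest runs shared by the other pairs of windows were between 8 and 16 bases. A match of letters is a description of the sequence and not a bound site.

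RUNX3 went from nearly absent to clearly detected. Empty A, B and C held 2, 0 and 2 RUNX3 counts, which correspond to 0.0839, 0 and 0.0787 CPM, where 3 counts, the limit that a count of 0 allows, are 0.118 to 0.126 CPM. NF-YAl A, B and D held 52, 269 and 273 counts, or 2.76, 11.0 and 11.2 CPM. NF-YAs A, B and C held 181, 252 and 219 counts, or 9.75, 12.5 and 10.1 CPM. Every library of both overexpressing lines was above every Empty library, and NF-YAl A was the lowest of the 6. Group means were 0.0542 ± 0.047 CPM in Empty, 8.32 ± 4.82 CPM in NF-YAl and 10.8 ± 1.52 CPM in NF-YAs (SD, n = 3).

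Because Empty held 4 RUNX3 counts in all, the size of the difference was limited by counting error in the control. The ratio of pooled counts, corrected for library size, was 163 in NF-YAl with a 95% interval of 63.5 to 602, and 201 in NF-YAs with an interval of 78.1 to 740, both exact intervals that cover counting error only. For single libraries the ratio to pooled Empty was 51.3 in NF-YAl A and lay between 181 and 233 in the other 5. On the log2 scale the pooled ratios were 7.35 and 7.65, and without Empty B they were 6.76 and 7.05. Both comparisons used the same Empty libraries. Between the lines, RUNX3 had a log2FC of -0.36 with an SE of 0.381 in NF-YAl relative to NF-YAs, and the libraries overlapped. Without NF-YAl A this log2FC was 0.04.

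**Figure D1:**
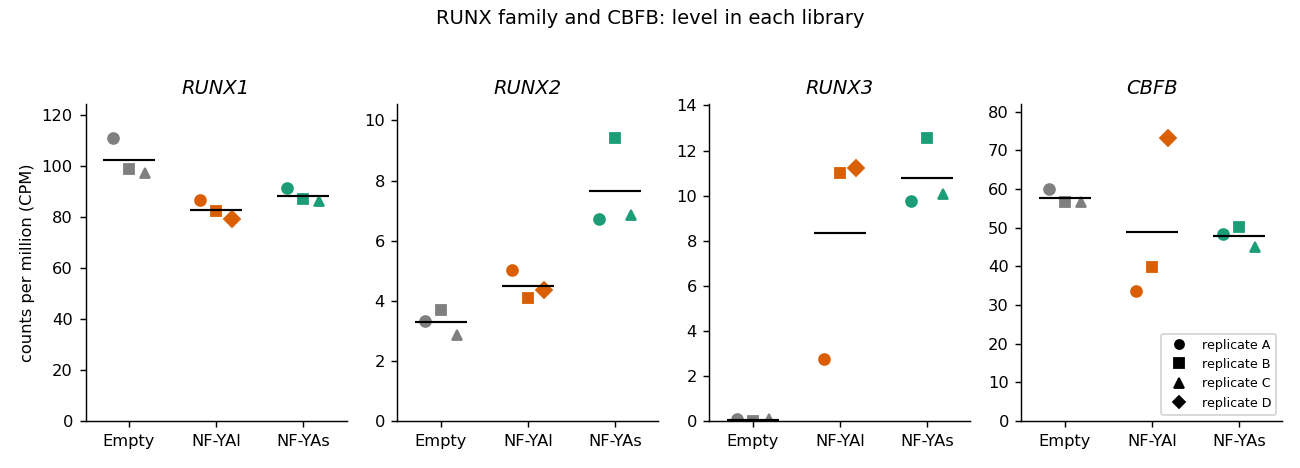
Level of each member in CPM (linear axis from 0) in every library of Empty, NF-YAl and NF-YAs, with a marker shape for each replicate letter and a line at the group mean. RUNX3 lies near 0 in Empty and at 2.76 to 12.5 CPM in the other lines, and CBFB in NF-YAl D lies at 73.1 CPM, above all other libraries.

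RUNX2, the bone-forming member, was low in Empty and higher in both lines, more so in NF-YAs. It was measured at 3.31, 3.70 and 2.87 CPM in Empty A, B and C, at 5.04, 4.09 and 4.35 CPM in NF-YAl A, B and D, and at 6.73, 9.41 and 6.87 CPM in NF-YAs A, B and C. These values rest on 73 to 189 counts per library. The CPM of the 3 groups did not overlap, with Empty lowest and NF-YAs highest. The log2FC was 0.44 (SE 0.195) in NF-YAl and 1.22 (SE 0.193) in NF-YAs relative to the same Empty libraries, and -0.77 (SE 0.19) between NF-YAl and NF-YAs. On the TPM scale, which also corrects for transcript length, RUNX2 in Empty (0.57 to 1.21) overlapped with NF-YAl (0.95 to 2.14) but not with NF-YAs (1.93 to 3.33).

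RUNX1, the blood-forming member and the most abundant of the RUNX genes here, was slightly lower in both lines. Empty A, B and C had 111, 98.8 and 97.4 CPM, NF-YAl A, B and D had 86.8, 82.3 and 79.5 CPM, and NF-YAs A, B and C had 91.6, 87.1 and 86.5 CPM. All libraries of both lines were below Empty in CPM, while in TPM all 3 groups overlapped. The log2FC was -0.31 (SE 0.089) in NF-YAl and -0.21 (SE 0.089) in NF-YAs relative to Empty, and -0.09 (SE 0.0892) between the lines. In these bulk samples, fewer cells that express a gene and less RNA of it per cell cannot be told apart.

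CBFB, the partner subunit, varied most within NF-YAl. It was measured at 59.9, 56.6 and 56.5 CPM in Empty A, B and C, at 33.6, 39.8 and 73.1 CPM in NF-YAl A, B and D, and at 48.4, 50.2 and 45.0 CPM in NF-YAs A, B and C. In CPM, NF-YAl D was thus above all Empty libraries, NF-YAl A and B were below them, and all NF-YAs libraries were below Empty. In TPM, CBFB in NF-YAs (17.65 to 22.53) overlapped with Empty (19.18 to 27.05). The log2FC of NF-YAl relative to Empty was -0.24 (SE 0.216), and -0.65 without NF-YAl D. Relative to NF-YAs it was 0.03 (SE 0.217), and -0.38 without NF-YAl D. In NF-YAs relative to Empty the log2FC was -0.27 (SE 0.217).

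The |log2FC| of RUNX3 was above 1 in NF-YAl and in NF-YAs relative to Empty, that of RUNX2 in NF-YAs only. Between the lines no member was above 1. RUNX3 passed the filter on low counts only through NF-YAl and NF-YAs. Other genes were called at a |log2FC| above 1 with an adjusted p under 0.01. Of all 17108 genes tested with edgeR, 4.76% were called higher and 3.50% lower in NF-YAl relative to Empty. It was 5.44% and 3.90% in NF-YAs relative to Empty, and 1.74% and 2.86% in NF-YAl relative to NF-YAs. Since the family was picked with these contrasts known, no adjusted p is given for its members and they are not set against these shares.

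**Figure D2:**
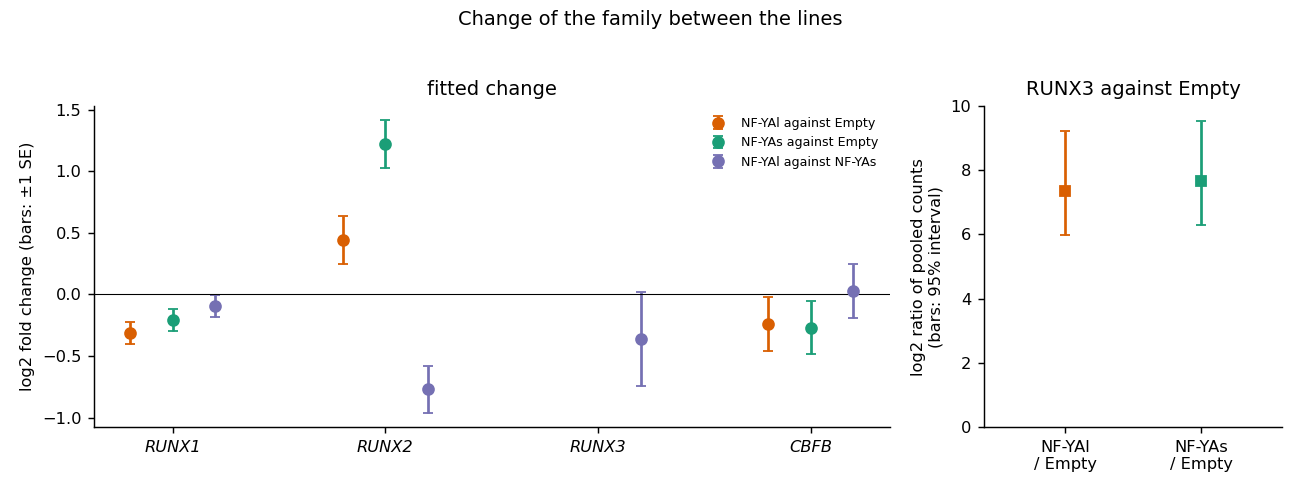
Left, fitted log2 fold change of each member in the 3 comparisons, with bars of 1 SE. Right, log2 ratio of pooled RUNX3 counts to Empty with 95% intervals, 7.35 in NF-YAl and 7.65 in NF-YAs, which stands in for the fitted change where Empty held 4 counts.

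The make-up of the family changed with RUNX3 and RUNX2. Per length, as percent of the summed TPM of the RUNX genes, RUNX1 took 96.7 ± 0.954% in Empty but 84.9 ± 4.01% in NF-YAl and, with 81.8 ± 2.01%, least in NF-YAs (SD, n = 3). RUNX3 took 0.0526 ± 0.0456%, 9.49 ± 5.68% and 9.88 ± 1.04%, in the same order. RUNX2 took 3.24 ± 1.01%, 5.63 ± 1.87% and 8.3 ± 1.51%. These RUNX2 shares include short noncoding transcripts that rest on few counts. In NF-YAl A, NR_103532.1 held 0.98 of 2.14 RUNX2 TPM on 4.67 counts. RUNX1 therefore remained the main RUNX transcript in every library, at 79.6% or more of the sum. The sum itself was 29.9 ± 7.67 TPM in Empty, 30.7 ± 9.16 TPM in NF-YAl and 33.9 ± 4.22 TPM in NF-YAs, differences within the spread of replicates.

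The order of the members per length was RUNX1, CBFB, RUNX2 and RUNX3 in Empty, where RUNX1 (24.3 to 37.4 TPM) and CBFB (19.2 to 27.1 TPM) overlapped between libraries. RUNX3 was above RUNX2 within every NF-YAs library and in NF-YAl B and D. The ranges overlapped in NF-YAs, with 2.90 to 3.82 TPM for RUNX3 and 1.93 to 3.33 TPM for RUNX2. That overlap rests on the noncoding RUNX2 transcripts. The protein-coding NM_001278478.1 was at 1.74, 2.04 and 1.55 TPM in NF-YAs A, B and C, and in NF-YAs B the coding NM_001024630.3 was at 0.17 TPM. CBFB was below RUNX1 in every library except NF-YAl D, where it reached 48.7 TPM against 33.4 TPM. The ratio of CBFB to the summed RUNX TPM was 0.699, 0.753 and 0.77 in Empty A, B and C and 0.603, 0.596 and 0.604 in NF-YAs A, B and C. In NF-YAl A, B and D it was 0.506, 0.607 and 1.19. All NF-YAs libraries and NF-YAl A and B were below Empty, and NF-YAl D was above.

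**Figure D3:**
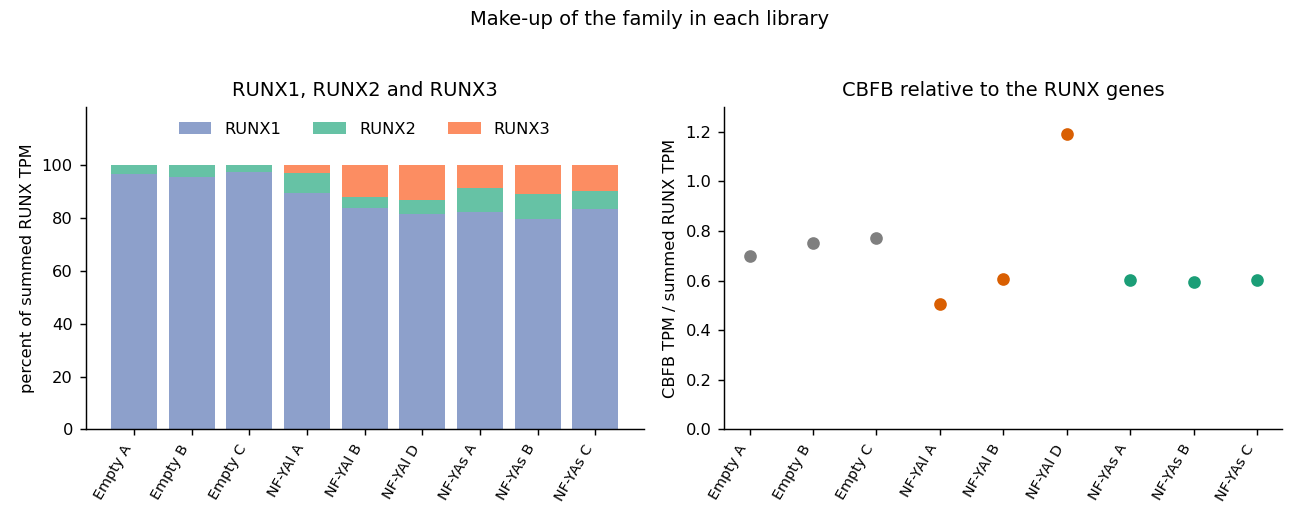
Left, percent of the summed RUNX TPM taken by RUNX1, RUNX2 and RUNX3 in each library. Right, CBFB TPM divided by the summed RUNX TPM in each library. RUNX1 takes 79.6% or more everywhere, and NF-YAl D has the highest CBFB ratio, 1.19.

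The files also split each gene into RefSeq transcripts, whose levels RSEM estimated from reads that can align to more than one of them. RUNX1 lies on the minus strand of chromosome 21, from 36160098 to 36421595 in GRCh37, with its starts 161 kb apart. RUNX2 lies on the plus strand of chromosome 6, from 45296054 to 45518819, with starts 94.3 kb apart, and SUPT3H overlaps it on the other strand. RUNX3 lies on the minus strand of chromosome 1, from 25226002 to 25291501, with starts 34.7 kb apart, and the annotation has the antisense gene RUNX3-AS1 over it. Whether reads were assigned by strand is not given in the sources used here, so reads of a gene and of its opposite-strand neighbour cannot be told apart. CBFB lies on the plus strand of chromosome 16, from 67063052 to 67134961.

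For RUNX3, the share of transcripts from the distal start, NM_001031680.2 and NM_001320672.1, was inconstant among the libraries. It was 0% in NF-YAl A, 15.5% in NF-YAl B and 77.7% in NF-YAl D. In NF-YAs A, B and C it was 37.9%, 70.2% and 65.9%. The rest was NM_004350.2 from the proximal start, so that both starts were assigned reads in all libraries of NF-YAs and in NF-YAl B and D. The means were 31.1 ± 41.1% in NF-YAl, 7.75% without NF-YAl D, and 58 ± 17.5% in NF-YAs (SD, n = 3). The counts in Empty were too few to give a share.

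For RUNX2, most reads were assigned to the protein-coding transcript of the proximal start, NM_001278478.1. By counts its share was 97.5%, 66% and 100% in Empty A, B and C, 76.3%, 38.5% and 81.8% in NF-YAl A, B and D, and 95.2%, 89.2% and 98.7% in NF-YAs A, B and C. NF-YAl B was the only library in which the distal transcript NM_001024630.3 held more counts, 60.55 against 38.45. By TPM the share of the proximal start was lower, 71.3 ± 28.2% in Empty, 64.9 ± 13.9% in NF-YAs and 48.1 ± 16.2% in NF-YAl. There the noncoding NR_103532.1 and NR_103533.1, of 470 and 435 bases, reached up to 0.98 and 0.59 TPM on fewer than 5 counts each. Expressed as counts, the RUNX2 difference between NF-YAs and Empty thus lay in the proximal transcript, with 119, 168.64 and 147 counts in NF-YAs A, B and C against 77, 61.41 and 73 in Empty A, B and C.

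For RUNX1, the short transcript NM_001122607.1, which encodes the form without the transactivation domain, took the largest share of TPM. It accounted for 65.2%, 62.2% and 63.8% of RUNX1 TPM in Empty A, B and C and for 63.1%, 67.6% and 61.9% in NF-YAs A, B and C. In NF-YAl A, B and D it accounted for 57.9%, 54.2% and 51.1%, below all other libraries. The distal transcript NM_001754.4 took 14.3 ± 1.31% in Empty, 12.9 ± 1.82% in NF-YAs and 11.4 ± 4.85% in NF-YAl, and these ranges overlapped. As a share of counts, which is not corrected for the shorter length, the short transcript took 40.6 ± 1.45%, 31.2 ± 3.2% and 41 ± 3.52% in Empty, NF-YAl and NF-YAs.

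The CBFB transcripts, of 3136 and 3105 bases, encode proteins with different ends, and their proportion hardly varied. The shorter, NM_022845.2, took 43.5 ± 3.06% of the CBFB level in Empty, 41.7 ± 4.65% in NF-YAs and 46.2 ± 1.81% in NF-YAl. NF-YAl D, high in total CBFB, had a share of 48.1%.

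The proteins that act with or on the RUNX subunits were followed in 3 lists. Of the 27 tested corepressors and coactivators, 1 was called higher in NF-YAl and 2 in NF-YAs relative to Empty. These were 3.7% and 7.41%, beside 4.76% and 5.44% of all genes, and 0 were called lower, beside 3.50% and 3.90%. Between the lines edgeR called 0 of them, beside 1.74% higher and 2.86% lower of all genes. At an unadjusted p under 0.05 there were 3 higher and 7 lower, and DESeq2 called 1 lower. TLE2, a Groucho corepressor that docks to the C-terminus of RUNX proteins, rose from 13.9 ± 2.74 CPM in Empty to 30.8 ± 6.19 CPM in NF-YAl (log2FC 1.14, SE 0.174, edgeR adjusted p = 0.000385) and 35.9 ± 4.29 CPM in NF-YAs (log2FC 1.37, SE 0.174, edgeR adjusted p = 9.24e-05). PRMT6, an arginine methyltransferase recruited by RUNX1, rose in NF-YAs from 10.1 ± 1.07 to 21.5 ± 1.53 CPM (log2FC 1.09, edgeR adjusted p = 5.21e-05). In NF-YAl it was at 17.4 ± 1.59 CPM (log2FC 0.79, edgeR adjusted p = 0.000603), short of the fold limit. This list had a median log2FC of 0.09, 0.13 and 0 in NF-YAl relative to Empty, NF-YAs relative to Empty and NF-YAl relative to NF-YAs, beside 0.011, -0.003 and 0.018 for all tested genes. Enzymes that modify or degrade RUNX proteins, such as the ubiquitin ligase SMURF1 and the kinase CDK1, numbered 28. In NF-YAl relative to Empty 1 of them was called, CCND2, a cyclin at 0.0402 CPM in Empty and 0.849 CPM in NF-YAl. The share called higher was thus 3.57% beside 4.76% of all genes, and the share called lower 0% beside 3.50%. CCND2 was named after its values were seen, since it was below the level set for naming genes. At 0.311 CPM in NF-YAs, it passed the filter on low counts through NF-YAl. It could thus be called higher but not lower in NF-YAl, and nothing is read from the call. In NF-YAs relative to Empty and between the lines, edgeR and DESeq2 each called 0 enzymes. Of all genes, edgeR called 5.44% higher and 3.90% lower, and 1.74% higher and 2.86% lower. At an unadjusted p under 0.05 edgeR had 8 enzymes higher and 2 lower, and 1 higher and 9 lower.

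Transcription factor partners of the RUNX proteins moved in both directions. Of 33 tested, 4 were called higher and 3 lower in NF-YAl relative to Empty, 12.1% and 9.09% beside 4.76% and 3.50% of all genes. In NF-YAs relative to Empty it was 2 higher and 2 lower, 6.06% each beside 5.44% and 3.90%. Between the lines 1 was higher in NF-YAl, 3.03% beside 1.74%, and 0 were lower, beside 2.86%. The counts relative to Empty include TWIST2, which passed the filter on low counts only through NF-YAl and NF-YAs. No test of the list was made. MYB, a blood progenitor factor, was measured at 0.545, 0.596 and 0.433 CPM in Empty A, B and C, and rose to 6.98 ± 0.352 CPM in NF-YAl (log2FC 3.72, SE 0.232, edgeR adjusted p = 8.21e-07) and 6.98 ± 1.37 CPM in NF-YAs (log2FC 3.72, SE 0.232, edgeR adjusted p = 6.83e-07). GATA2, a zinc finger factor of blood progenitors and prostate epithelium, moved in opposite directions, from 21.8 ± 4.58 CPM in Empty to 51.5 ± 16.2 CPM in NF-YAl and 5.97 ± 2.46 CPM in NF-YAs, with an edgeR log2FC of 3.10 between the lines (SE 0.311, adjusted p = 5.17e-05). Its rise in NF-YAl relative to Empty, a log2FC of 1.24, no longer passed without Empty A, Empty C, NF-YAl A or NF-YAl B, with 1.14, 1.18, 1.01 and 1.21. In NF-YAl relative to Empty, SMAD1, the BMP signal transducer, rose by a log2FC of 1.01, and lost the call without Empty B or NF-YAl A, with 0.90 and 0.82. The ETS factor ELF4 fell from 48.1 ± 1.05 to 20.1 ± 4.99 CPM in NF-YAl. In NF-YAs, ELF4 was at 24.5 ± 3.99 CPM (log2FC -0.97, edgeR adjusted p = 0.000889), short of the fold limit, and at -1.04 without NF-YAs B or NF-YAs C. SMAD1 also rose in NF-YAs (log2FC 0.85, edgeR adjusted p = 0.00434), short of the fold limit. The list's median log2FC was -0.08, -0.16 and 0 in the 3 comparisons.

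Genes known as RUNX2 targets in bone and cartilage numbered 22 among those tested, of which 8 were called higher and 1 lower in NF-YAs relative to Empty, 36.4% and 4.55% beside 5.44% and 3.90% of all genes, and no test of the list was made. Of the 8, MMP2, SPP1, COL1A2 and GLI1, named after their values were seen, had means of 0 to 0.414 CPM in Empty. MMP2, at 0 CPM in Empty and 0.0273 CPM in NF-YAl, passed the filter on low counts only through NF-YAs, at 1.06 CPM. Such a gene could be called higher but not lower in NF-YAs, so nothing is read from the shares. In NF-YAl, 3 genes were higher and 3 lower relative to Empty. Between the lines, 1 was higher and 4 were lower in NF-YAl. The list was written from general knowledge with earlier results known, and its median log2FC was 0.05, 0.05 and -0.20 in NF-YAl relative to Empty, NF-YAs relative to Empty and NF-YAl relative to NF-YAs. COL1A1, the chain of type I collagen, was measured at 40.3, 39.4 and 39.4 CPM in Empty A, B and C, at 57.2, 50.1 and 30.6 CPM in NF-YAl A, B and D and at 118, 141 and 119 CPM in NF-YAs A, B and C. It rose in NF-YAs (log2FC 1.67, SE 0.181, edgeR adjusted p = 3e-05), whereas the NF-YAl libraries overlapped with Empty.

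MMP9, a gelatinase, rose from 0.673 ± 0.0706 CPM in Empty to 5.52 ± 0.89 CPM in NF-YAs (log2FC 3.03, SE 0.238, edgeR adjusted p = 3.25e-06) and less in NF-YAl, 1.91 ± 0.266 CPM, with a tested difference between the lines of -1.53 on the log2 scale. SNAI2, a repressor of epithelial genes, rose in NF-YAs from 5.73 ± 0.545 to 20.2 ± 2.6 CPM. COL10A1, the collagen of hypertrophic cartilage, rose in both, to 10.4 ± 2.67 CPM in NF-YAl and 5.18 ± 0.689 CPM in NF-YAs from 2.2 ± 0.282 CPM. The collagenase MMP13 went the other way and fell in both, from 95.3 ± 15.3 to 28.3 ± 4.02 and 41.3 ± 7.39 CPM. In NF-YAl the phosphate regulator PHEX and the parathyroid hormone-related PTHLH were also called lower, with log2FC of -1.22 and -1.08, and PTHLH came to -0.94 without Empty C and -0.97 without NF-YAl D, short of the fold limit. The log2FC of PHEX and PTHLH in NF-YAs were -0.32 and -0.59, neither called.

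Genes known as RUNX1 or RUNX3 targets in blood and growth control numbered 20 among those tested. Of these, 4 were called higher in NF-YAl and 3 in NF-YAs relative to Empty, and 2 were higher in NF-YAl relative to NF-YAs. These were 20%, 15% and 10%, beside 4.76%, 5.44% and 1.74% of all genes, and no test of the list was made. Of all genes, 3.50%, 3.90% and 2.86% were called lower. Called lower with edgeR or DESeq2 were 0 genes of this list, and at an unadjusted edgeR p under 0.05 there were 0, 5 and 3 lower in NF-YAl relative to Empty, NF-YAs relative to Empty and NF-YAl relative to NF-YAs. The platelet integrin ITGA2B rose from 4.08 ± 0.468 to 8.18 ± 0.267 CPM in NF-YAl and 11.2 ± 1.09 CPM in NF-YAs, and the Wnt feedback gene AXIN2 rose from 3.27 ± 0.58 to 6.77 ± 1.71 and 7.86 ± 1.54 CPM. In NF-YAl, ITGA2B came to a log2FC of 0.91 without Empty C and 0.98 without NF-YAl D, short of the fold limit, and AXIN2 lost the call without any 1 Empty library or without NF-YAl B. CLDN1, a tight junction protein, rose in NF-YAl from 3.24 ± 1.16 to 13.8 ± 6.12 CPM (log2FC 2.10, SE 0.322, edgeR adjusted p = 0.00041) and was at 3.76 ± 0.459 CPM in NF-YAs. BCL2, the inhibitor of apoptosis, rose in NF-YAl from 1.9 ± 0.219 to 5.46 ± 0.825 CPM and was at 1.9 ± 0.156 CPM in NF-YAs. With an offset for effective length, its log2FC in NF-YAl fell from 1.52 to 0.89, short of the fold limit. The list's median log2FC was 0.14, -0.10 and 0.28. Genes of these lists restricted to leukocytes, such as CD4, CD8A, MPO and ELANE, had at most 12 counts in a library and were not tested.

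Over the 5 lists together, 130 of 158 genes were tested. Relative to Empty, 10% were called higher and 4.62% lower in NF-YAl, 13 and 6 genes, beside 4.76% and 3.50% of all genes. In NF-YAs it was 11.5% and 2.31%, 15 and 3 genes, beside 5.44% and 3.90%. These shares include genes such as MMP2 that passed the filter only through the group where they were high. With at least 10 counts in every library, which removes such genes, NF-YAl had 10 higher and 5 lower, and NF-YAs 10 higher and 2 lower. The shares of all genes called under that filter are not given here. These counts are therefore not compared with them, and no excess is read from them. Between the lines, 3.08% were called in each direction, 4 genes each way, beside 1.74% higher and 2.86% lower of all genes. Without Empty C, 8 genes were called higher in NF-YAl, and without NF-YAs B, 2 were called higher in NF-YAl relative to NF-YAs. The median log2FC was -0.03, 0.08 and -0.09.

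**Figure D4:**
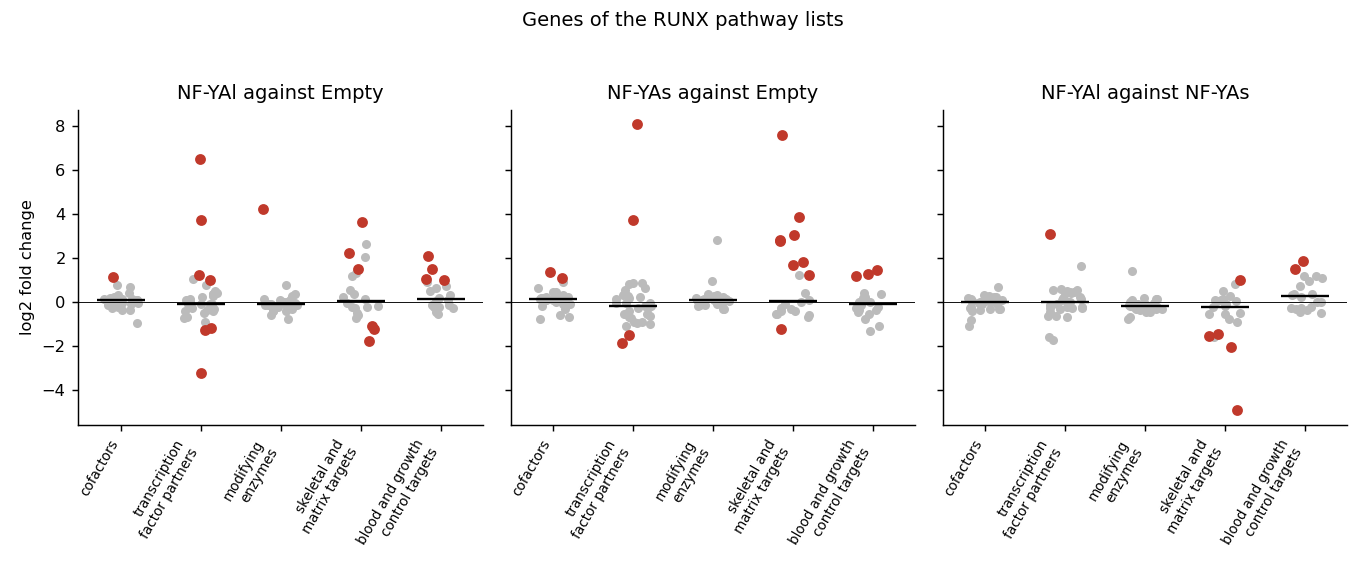
Log2 fold change of each tested gene of the 5 lists in the 3 comparisons. Red points had an edgeR |log2FC| above 1 with an adjusted p under 0.01, grey points did not, and the black line is the list's median, which lies between -0.20 and 0.28.

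Of 14 tested genes that overlap or neighbour the members, 1 was called lower in NF-YAl, and 1 higher and 1 lower in NF-YAs, each relative to Empty. Each count was 7.14% of the list, beside 3.50% of all genes lower in NF-YAl. In NF-YAs, 5.44% of all genes were higher and 3.90% lower, and nothing is read from the counts. SUPT3H, a transcription cofactor gene antisense to RUNX2, was at 4.94 ± 0.443 CPM in Empty, 5.33 ± 0.239 CPM in NF-YAl and 6.52 ± 1.26 CPM in NF-YAs and passed no test. CLIC5, which also neighbours RUNX2 and encodes a chloride channel protein, had 0 counts in all Empty libraries and at most 3 in NF-YAl. It passed the filter on low counts only through NF-YAs, at 1.09 ± 0.225 CPM. There it could be called higher but not lower, so nothing is read from its call. Beside RUNX3, the chloride channel gene CLIC4 and the splicing genes SYF2 and SRRM1 had log2FC of -0.06, 0.39 and 0.47 in NF-YAs and 0.41, 0.48 and 0.32 in NF-YAl relative to Empty, none past the thresholds. Near RUNX1, the calcineurin inhibitor RCAN1 fell from 341 ± 66.1 to 142 ± 27.2 CPM in NF-YAl (log2FC -1.26, edgeR adjusted p = 9.53e-05) and 101 ± 6.23 CPM in NF-YAs (log2FC -1.76, edgeR adjusted p = 8.97e-06). RUNX1-IT1, a transcript within RUNX1, was at 8.09 ± 1.71, 5.28 ± 1.87 and 5.66 ± 0.977 CPM in Empty, NF-YAl and NF-YAs. Near CBFB, the death receptor adaptor TRADD had log2FC of -0.84 and -0.85, with edgeR adjusted p of 0.000663 and 0.000559, short of the fold limit.

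The genes whose log2 CPM followed a member most closely over the 9 libraries, among 12124 genes with a mean of at least 5 CPM, are given as a description, since libraries of a line share that line. For RUNX3 they were ZNF788, SHISA2 and RFLNB, with Pearson's r of 0.996, 0.992 and 0.992. For RUNX2 they were ABCG1, NKIRAS2 and RABEPK, with r of 0.976, 0.974 and 0.962. For RUNX1 they were B4GALT1, TPM3P9 and ESRG, with r of 0.96, 0.958 and 0.957. For CBFB they were ZBTB33, PPA1 and MTHFD2, with r of 0.969, 0.968 and 0.963, and all of these were highest in NF-YAl D, at 59.5, 144 and 89.3 CPM.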

How the data were processed

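Stranded total RNA libraries of 9 PC3 samples, 3 per line, were analysed. Per the labels and the methods, the authors aligned reads to human transcripts of GRCh37 (hg19) with bowtie2 within RSEM. They deposited, per gene and transcript, the expected count (RSEM's estimated count, not normalized), the TPM and, for transcripts, their percent of the summed TPM of the gene. Transgene sequences were murine, and reads were counted on human transcripts.

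Gene-level expected counts were rounded and fitted with edgeR 4.0.16 in R 4.3.3 over all 9 libraries (filterByExpr, TMM, quasi-likelihood F test, Benjamini-Hochberg over 17108 genes, called at an adjusted p under 0.01 and |log2FC| above 1). Of 36 gene-level expected counts of the members, 35 were whole numbers. CPM were TMM-scaled. SEs were |log2FC| over the square root of F. RUNX3 ratios to Empty used pooled counts with exact conditional binomial intervals. P-values measure the spread between libraries of 1 line per construct. Replicate libraries were not duplicates of each other: the chi-square between them was 6.2 to 90 per gene.

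The members and the lists, written from general knowledge, were chosen with earlier results of these data known. Named genes were the members, NFYA, the neighbours, up to 4 called genes per list, comparison and direction with a mean of at least 5 CPM and no overlap, and the 3 genes most correlated with each member, except where stated. Some genes of the lists are not reported here. RefSeq transcripts were matched to GENCODE transcripts of GRCh37 by length, within 15 bases, and to the RUNX2 proximal transcript after its last exon was extended to the common end of the gene. Promoter windows came from RefSeq, GRCh38.p14, and no coordinate was converted.

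Also tried were DESeq2 1.42.0 and its size factors, scaling by relative log expression, no filter on low counts, a minimum of 10 counts in every library, fits of the 2 groups compared alone, a replicate block by letter, a correction for effective length, a looser adjusted p of 0.05, shares of counts in place of TPM, and fits without each library. On simulated data with 200 changed genes among 17108, for NF-YAl relative to Empty, edgeR and DESeq2 each recovered 200 with 0 false calls. Python 3.11.15 and matplotlib 3.10.9 made the figures.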

Additional observations from a re-analysis of the deposited data

Results flagged for a closer look

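By the direct edgeR test of NF-YAl relative to NF-YAs, the lines differed in 7 RUNX pathway genes that reached the level set for naming. MMP2, which passed the thresholds below that level, was also lower in NF-YAl, with a log2FC of -4.93. It passed the filter on low counts only through NF-YAs, so it could not have been called the other way. GATA2 (log2FC 3.10), CLDN1 (1.88), BCL2 (1.52) and COL10A1 (1) were higher in NF-YAl. SNAI2 (-2.06), MMP9 (-1.53) and COL1A1 (-1.45) were lower in NF-YAl. For GATA2 the changes relative to Empty had opposite signs, and for COL10A1 and MMP9 both lines were higher than Empty. The COL10A1 difference lies at the fold limit and lost its call with DESeq2, with a fit of the 2 groups alone, with the offset for effective length, and without Empty B, NF-YAl A, NF-YAs B or NF-YAs C. The BCL2 difference came to 0.90 with the offset for effective length, and the CLDN1 difference lost its call without NF-YAs B, with a log2FC of 1.78.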

How the results depend on the processing

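Among the members' fold changes, the counts over the 5 lists and the transcript shares, 326 values under the alternatives stayed within 1 SD of the value given or, for counts of genes, within 1.5 times of it, and 17 moved by more. No member difference with a |log2FC| above 1 changed sign, but the smaller differences of CBFB (0.03) and RUNX3 (-0.36) between the lines did. For CBFB this was with the block and without NF-YAl D or NF-YAs C, and for RUNX3, to 0.04, without NF-YAl A. CBFB in NF-YAl moved to -0.68 relative to Empty and -0.41 relative to NF-YAs with the replicate letter as a block. Without 1 library it ranged from -0.65 to -0.03 and from -0.38 to 0.24, the lower end without NF-YAl D. The letters paired the samples weakly if at all: the mean correlation of deviations was 0.0862 for same-letter pairs and -0.0299 for other pairs. Of 7 same-letter pairs 3 were over 0.1, with a range of -0.0652 to 0.253. A shared experiment behind a letter is not given by the labels and is not excluded. The block took ITGA2B (0.98) and PTHLH (-0.89) in NF-YAl below the fold limit. With an offset for effective length, RUNX1 in NF-YAl had a log2FC of -0.46 relative to Empty and -0.25 relative to NF-YAs, and 2 list genes were called higher in NF-YAl relative to NF-YAs instead of 4. With at least 10 counts in every library, 10 list genes were higher and 5 lower in NF-YAl and 10 higher and 2 lower in NF-YAs, each relative to Empty, instead of 13 and 6, and 15 and 3. DESeq2 called 6 lower in NF-YAl relative to NF-YAs instead of 4. At an adjusted p under 0.05, 8 were called lower in that comparison instead of 4. Without 1 library, 8 to 13 list genes were higher in NF-YAl relative to Empty and 2 to 5 relative to NF-YAs. As shares of counts, the distal RUNX1 start took 20.6% in Empty and 18.7% in NF-YAs, the short RUNX1 transcript 40.6%, 31.2% and 41% in Empty, NF-YAl and NF-YAs, and the proximal RUNX2 start 65.5% in NF-YAl and 94.4% in NF-YAs. The cause of these shifts was not tested, except that shares of counts are not corrected for length. RUNX3 relative to Empty had no value under the block, the length offset or the filter of at least 10 counts. Of the values for single named list genes, 889 kept their call, 27 lost it and 2 gained it. RUNX2 and RUNX3 rest on at most 189 and 273 counts per library, which limits their transcript shares.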

Other observations

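The genes that passed the thresholds below the level set for naming included TWIST2, an inhibitor of RUNX2 in bone precursors, with 0 CPM in Empty and 0.486 and 1.52 CPM on average in NF-YAl and NF-YAs, and MMP2, a gelatinase, with 0 CPM in Empty and 0.0273 and 1.06 CPM. SPP1, the bone matrix protein osteopontin, was at 0.0264 CPM in Empty and at 0.393 and 0.462 CPM in NF-YAl and NF-YAs. GLI1, the hedgehog factor, was at 0.414 CPM in Empty and 3.01 CPM in NF-YAs. The homeobox gene DLX3, a partner of RUNX2, was at 4.63 CPM in Empty and lower in both, at 0.502 and 1.62 CPM. These genes were named after their values were seen. TWIST2, MMP2 and SPP1 passed the filter on low counts only through lines where they were high, so nothing is read from their calls.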
